A study of Mus musculus with 6 samples.

Results

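LD-F1_b and LD-F1 are the names the labels give to 2 strains of the fungus Aspergillus flavus, and the comparison described here is between mouse macrophages that received extracellular vesicles (EVs) of LD-F1_b and macrophages that received EVs of LD-F1. It takes 4 of the 6 libraries of the series, 2 for each strain, and every gene of the count table. The macrophages were bone-marrow-derived cells (BMDMs) of wild-type male C57BL/6 mice aged 6 weeks, grown for 6 days with 20% serum and 30% medium conditioned by L-929 cells. Wells received 20 µg of EVs for 6 h, or phosphate-buffered saline (PBS) in the other 2 libraries, which served here as the untreated level. The labels do not say what the suffix in LD-F1_b stands for, by which measure the EV dose was set, or what separated the 2 biological replicates of a group, so p-values measure the spread between these libraries. At that spread, 54 of 12740 tested genes differed between the EV groups, and 52 of the 54 were lower with LD-F1_b EVs.

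EVs are membrane-bound particles that cells release with protein, lipid and RNA cargo, and fungal EVs can be taken up by phagocytes. Macrophages that sense microbial material activate the transcription factor NF-kB, which drives cytokine, chemokine and enzyme genes together with genes that later restrain the response. A second program runs through type I interferon and the transcription factors it activates, and raises a set of antiviral and antimicrobial genes (interferon-stimulated genes). Both programs are known to be switched on in macrophages within hours of stimulation.

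Library totals lay between 13722215 and 15277997 counts, so a floor of 3 counts corresponded to 0.189 to 0.225 counts per 1000000 counts of the library (CPM), with libraries scaled by TMM (trimmed mean of M values). The macrophage marker set was high in all libraries, with a summed level of 4052 to 4088 CPM with LD-F1 EVs, 3958 to 4152 CPM with LD-F1_b EVs and 3659 to 3677 CPM with PBS. The set held Adgre1 at 423 to 451 CPM in the EV libraries, while Itgam, also a defining macrophage gene, was near 0 in all libraries, at most 0.252 CPM. Markers of T and NK cells summed to at most 0.0691 CPM, mast cell and erythroid markers were at 0, and neutrophil markers summed to 2.35 to 3.52 CPM in the EV libraries, with S100a9, Ly6g, Elane and Ngp at 0 in all libraries. B-cell markers summed to 42.0 to 49.7 CPM in the EV libraries, nearly all from Ighm, with Ms4a1 at 0. Markers of dendritic cells summed to 8.89 to 8.99 CPM with LD-F1 EVs, 6.15 to 7.16 CPM with LD-F1_b EVs and 2.9 to 3.26 CPM with PBS, mostly from Xcr1, with Siglech and Ccr7 at 0. Osteoclast markers summed to 298 to 350 CPM, 293 to 294 CPM and 219 to 243 CPM in the same order, with Calcr at 0. Endothelial markers summed to 27.6 to 36.7 CPM, 37.5 to 38.7 CPM and 48.3 to 55.9 CPM, mostly from Vwf, and megakaryocyte markers to 8.99 to 11.3 CPM, 8.22 to 8.34 CPM and 5.99 to 7.57 CPM, with Gp9 at 0. No gene of any marker set was called different between the EV groups, and the part of other cell types in the results was not tested. In bulk RNA, fewer cells of a type and less RNA per cell cannot be told apart.

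The LD-F1 libraries differed from each other more than the LD-F1_b or PBS libraries did. Over 9663 genes at 5 CPM or more, the log2 difference of the 2 LD-F1 libraries had a standard deviation of 0.296, against 0.198 for the LD-F1_b libraries and 0.162 for the PBS libraries. In LD-F1 this difference followed gene length (Spearman's rho 0.481 across genes, which are not independent replicates), against 0.195 in LD-F1_b and 0.00828 in PBS. In the shortest of 20 length bins, with a median of 714 bases, the median difference of replicate 1 from replicate 2 of LD-F1 was -0.26, and in the longest, at 13980 bases, it was 0.31. Across genes the contrast of LD-F1_b with LD-F1 itself followed length with a rho of 0.117. The called genes had a median length of 3002 bases against 3475 bases over all genes tested.

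**Figure D1:**
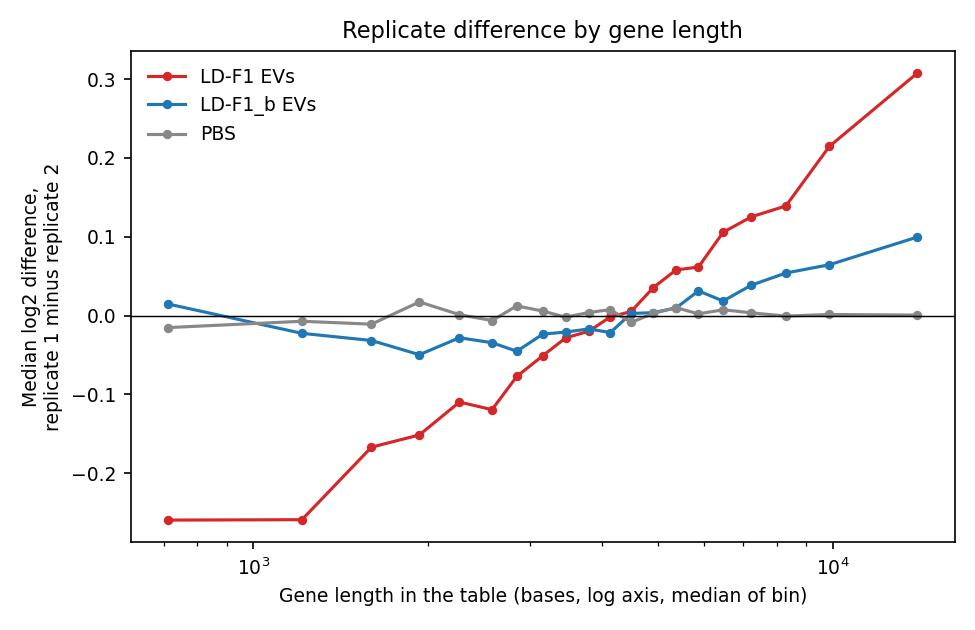
Median log2 difference between replicate 1 and replicate 2 of each group (vertical axis) in 20 bins of gene length (horizontal axis, bases, log scale), for 9663 genes. The LD-F1 line runs from -0.26 to 0.31, the LD-F1_b line ends at 0.10 and the PBS line stays near 0.

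Between the EV groups, edgeR's quasi-likelihood test with Benjamini-Hochberg adjustment over 12740 genes called 54 genes at an adjusted p under 0.05, or 0.424%. Of these, 52 were lower with LD-F1_b EVs (0.408%) and 2 were higher (0.0157%). At an unadjusted p under 0.05 there were 576 lower and 543 higher genes. DESeq2 called 89 lower and 21 higher among the same 12740 genes, of which 1482 were given no adjusted p and could not be called. The EV libraries did not overlap between the groups for 2162 lower genes (17.0%) and 2171 higher genes (17.0%), and each of the 54 called genes was among them. The 52 lower genes ranged from 1.36-fold to 6.2-fold lower, with a median of 1.74-fold, and 19 of them were at least 2-fold lower. Their level with LD-F1 EVs ran from 10.5 CPM to 3471 CPM, with a median of 99.1 CPM. The fitted log2 difference from PBS of the same 52 genes had a median of 1.85 with LD-F1 EVs (0.74 to 8.19) and of 1.08 with LD-F1_b EVs (0.19 to 6.80). Those differences share the PBS libraries.

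The number of calls depended on which library was left out. Without replicate 1 or replicate 2 of LD-F1_b, 1 gene (Cxcl2, adjusted p = 0.0343) and 0 genes were called, and without replicate 1 or replicate 2 of LD-F1, 1152 and 360 were called. All 54 genes kept their direction in each of the 17 other settings, these 4 included, which for the settings that leave out a library follows from the lack of overlap and is no measure of stability. In each of these fits the group left with a single library is assumed to vary like the other groups. Of the 54 genes, 32 were called in all 15 settings that keep both LD-F1_b libraries. The other 22 lost the call in at least 1 of them, Csf3 by DESeq2 and 21 genes, Timp2 and Mmd included, with only the 4 EV libraries.

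**Figure D2:**
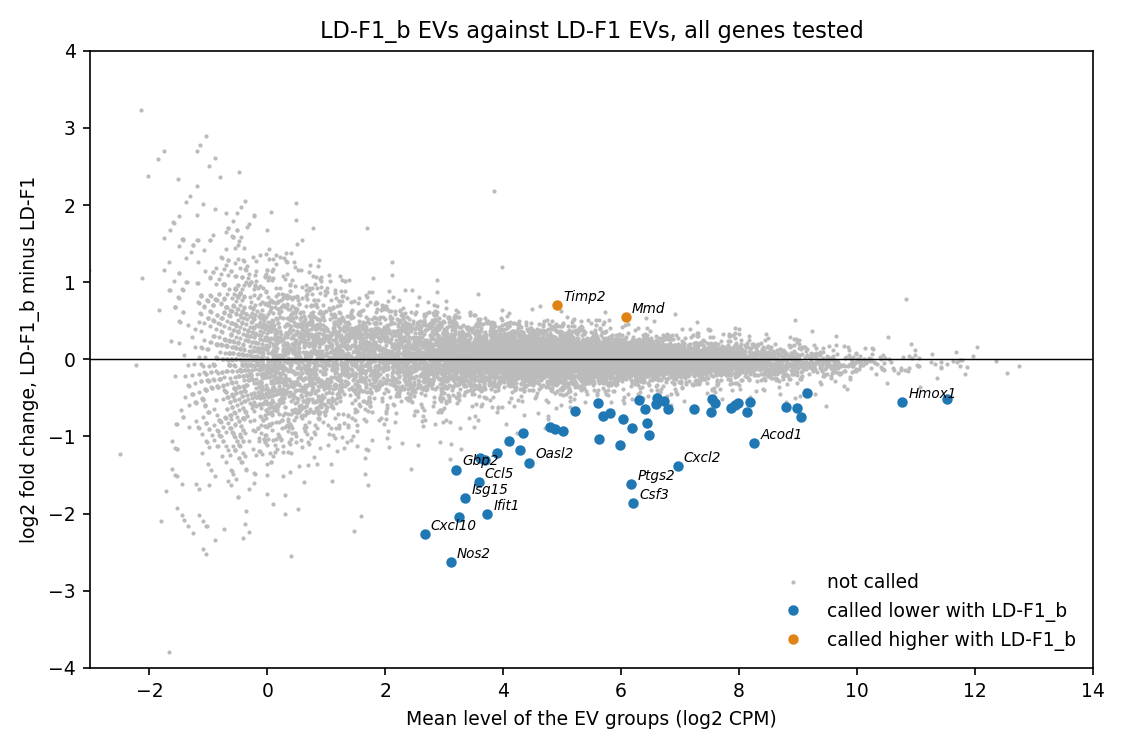
Each point is a gene tested, by its mean level in the EV groups (horizontal axis, log2 CPM) and its log2 fold change of LD-F1_b against LD-F1 EVs (vertical axis). The 52 called lower genes (blue) lie below 0 and the 2 called higher genes, Timp2 and Mmd (orange), above it, and 4 genes fall outside the axes.

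Start-site sequences of RefSeq (build GRCm38.p6, 250 bases before to 50 after a start) were matched by symbol for 8472 of the 12740 tested genes, in 10830 windows, and for 37 of the 52 lower genes, in 40 windows. The core of the interferon-stimulated response element, searched as GAAANNGAA on both strands, was in 11 of the 40 windows of lower genes (27.5%) and in 797 of the 10830 windows (7.36%). Gene lists without a call ranged widely. The same core was in 8 of 28 windows of ribosomal protein genes (28.6%) and 5 of 16 of TRIM and ubiquitin ligase genes (31.3%). It was in 1 of 34 windows of S phase genes (2.94%). An NF-kB core, GGGNNTTTC on both strands, was in 5 of 40 (12.5%) against 458 of 10830 (4.23%). The AP-1 motif TGANTCA was in 6 of 40 (15%) against 5.07%, the ATF4 composite element TGATGNAA in 2 of 40 (5%) against 2.27%, and the E2F motif TTTNNCGC in 5 of 40 (12.5%) against 8.62%. A match is a description of these letters and does not show a bound site. Windows of 3 strongly lower genes with the interferon core and of 2 lower genes with the NF-kB core are shown, 5′ to 3′ on the gene's strand, with the matches in capitals.
Cxcl10 (chr5:92348840-92349139, minus strand): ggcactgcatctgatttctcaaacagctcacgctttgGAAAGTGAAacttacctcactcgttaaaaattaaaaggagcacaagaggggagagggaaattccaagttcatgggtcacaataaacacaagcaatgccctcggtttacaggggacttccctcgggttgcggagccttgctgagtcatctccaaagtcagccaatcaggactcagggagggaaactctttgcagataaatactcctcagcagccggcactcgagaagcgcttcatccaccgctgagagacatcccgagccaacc
Ifit1 (chr19:34640639-34640938, plus strand): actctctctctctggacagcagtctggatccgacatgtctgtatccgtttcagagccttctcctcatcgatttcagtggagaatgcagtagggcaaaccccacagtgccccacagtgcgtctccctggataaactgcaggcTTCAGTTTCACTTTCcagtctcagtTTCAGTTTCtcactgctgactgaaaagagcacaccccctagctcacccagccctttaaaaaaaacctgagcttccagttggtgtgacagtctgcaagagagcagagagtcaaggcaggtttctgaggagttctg
Isg15 (chr4:156200769-156201068, minus strand): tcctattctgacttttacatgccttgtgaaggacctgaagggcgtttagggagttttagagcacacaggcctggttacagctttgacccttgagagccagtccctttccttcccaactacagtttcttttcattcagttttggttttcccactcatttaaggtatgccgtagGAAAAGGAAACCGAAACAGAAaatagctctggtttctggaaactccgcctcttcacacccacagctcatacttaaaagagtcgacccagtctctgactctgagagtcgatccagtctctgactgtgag
Cxcl2 (chr5:90903649-90903948, plus strand): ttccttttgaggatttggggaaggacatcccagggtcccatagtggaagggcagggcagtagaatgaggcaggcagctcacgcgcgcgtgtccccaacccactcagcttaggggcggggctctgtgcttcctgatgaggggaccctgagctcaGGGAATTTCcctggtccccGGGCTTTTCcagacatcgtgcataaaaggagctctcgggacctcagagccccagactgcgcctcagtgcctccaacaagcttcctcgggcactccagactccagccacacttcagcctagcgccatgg
Nfkbia (chr12:55492598-55492897, minus strand): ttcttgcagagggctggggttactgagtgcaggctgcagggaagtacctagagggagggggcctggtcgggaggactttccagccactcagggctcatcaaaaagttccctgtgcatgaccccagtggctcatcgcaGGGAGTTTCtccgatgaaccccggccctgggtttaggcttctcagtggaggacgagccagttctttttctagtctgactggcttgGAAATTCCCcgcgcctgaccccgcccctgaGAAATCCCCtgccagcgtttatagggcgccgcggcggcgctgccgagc
The Isg15 window held 3 overlapping interferon cores, starting 78, 72 and 66 bases before the start site. Ifit1 held 3, of which 2 overlap, and Cxcl10 held 1, 213 bases before the start. In Cxcl2 the NF-kB cores started 97 and 78 bases before the start site, and Nfkbia held 3.

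Some of the chemokines and cytokines that recruit and expand leukocytes were called lower with LD-F1_b EVs. Of the CXC chemokines, 2 of 6 tested members were called lower, Cxcl2 and Cxcl10, and of the CC chemokines 3 of 8, Ccl5, Ccl3 and Ccl4. Of the proinflammatory cytokines 2 of 12 were called lower, Csf3 and Tnf. DESeq2 also called 2 of the 12 lower, Tnf and a member other than Csf3, where it called 89 of all genes tested lower. No member of these lists was called higher. Over all genes tested, 0.408% were called lower by edgeR's quasi-likelihood test. The list medians on the log2 scale were -0.26, -0.59 and -0.52, beside -0.002 over all genes tested.

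Cxcl2 encodes a neutrophil-attracting chemokine that lies on chromosome 5 (95658254 to 95660321, in the coordinates of the count table). Its level was 169 and 191 CPM with LD-F1 EVs, 72.8 and 64.6 CPM with LD-F1_b EVs, and 0.587 and 0.63 CPM with PBS. The EV groups did not overlap, and PBS lay far below both. The log2 fold change of LD-F1_b against LD-F1 was -1.39 ± 0.10 (SE), with an adjusted p of 0.000187, the smallest of all genes tested. Cxcl10, an interferon-induced chemokine for T cells, whose window above holds an interferon core, was at 11.2 and 9.89 CPM with LD-F1 EVs against 2.64 and 1.73 CPM with LD-F1_b EVs. PBS libraries were at 1.24 and 1.01 CPM, below both LD-F1_b libraries. The fitted log2 difference of LD-F1_b EVs from PBS was 0.96 ± 0.35. The fold change of LD-F1_b against LD-F1 was -2.26 ± 0.28 on the log2 scale (adjusted p = 0.00368).

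Among the CC chemokines, which attract monocytes and T cells, Ccl5 had the greatest called difference. It was at 16.2 and 19.8 CPM with LD-F1 EVs and at 5.63 and 6.36 CPM with LD-F1_b EVs, a log2 fold change of -1.59 ± 0.20 (adjusted p = 0.0044). Ccl3 fell from 668 and 565 CPM to 413 and 383 CPM (-0.63 ± 0.10, adjusted p = 0.019), and Ccl4 from 119 and 133 CPM to 83.0 and 89.9 CPM (-0.54 ± 0.10, adjusted p = 0.0335). The groups did not overlap for any of the 3. Ccl2, named after its values were seen as the monocyte chemokine of the list, was not called at 287 CPM with LD-F1 EVs and 238 CPM with LD-F1_b EVs (log2 -0.27, adjusted p = 0.432). Ccl7 and Ccl22 also missed the threshold, at -0.73 ± 0.21 and -1.14 ± 0.29 (adjusted p = 0.241 and 0.185).

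Csf3, the gene of G-CSF, which drives neutrophil production, stood at 129 and 102 CPM with LD-F1 EVs, at 28.6 and 35.0 CPM with LD-F1_b EVs and at 0.914 and 0.063 CPM with PBS. Its log2 fold change was -1.86 ± 0.22 (adjusted p = 0.00672 by edgeR's quasi-likelihood test), while DESeq2 did not call it (adjusted p = 0.775). Tnf, the cytokine TNF, was at 357 and 341 CPM against 242 and 232 CPM, a smaller difference of -0.56 ± 0.08 (adjusted p = 0.00966). For both genes the LD-F1_b libraries lay between PBS and LD-F1. Il1b, at 7.64 and 8.18 CPM with LD-F1 EVs and 2.16 and 3.73 CPM with LD-F1_b EVs, was not called by edgeR's quasi-likelihood test (-1.42 ± 0.33, adjusted p = 0.117). Il6, which encodes the cytokine IL-6, had 35 counts in the LD-F1 libraries together, 1 count in the LD-F1_b libraries and 0 with PBS. The ratio was 36.9, with a 95% exact counting interval of 6.19 to 1497 that leaves out the spread between libraries. Il6 was not called by edgeR's quasi-likelihood test (adjusted p = 0.107).

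**Figure D3:**
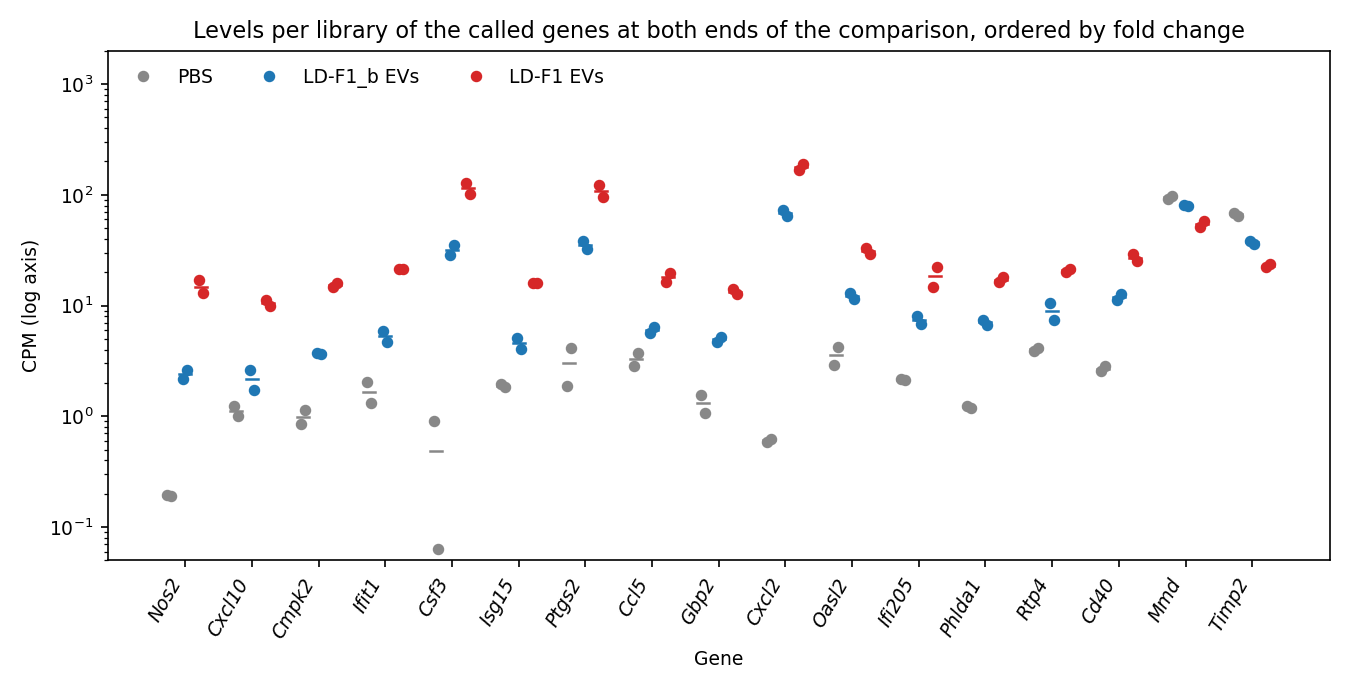
Level in each library (CPM, log axis) of the 15 lowest and the 2 called higher genes, 2 points and a bar for the mean in each of PBS (grey), LD-F1_b EVs (blue) and LD-F1 EVs (red). For the lower genes the LD-F1_b points lie between those of PBS and LD-F1, as Csf3 shows with 28.6 and 35.0 CPM, and for Timp2 and Mmd the order of the groups is the opposite.

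Of the enzymes that make inflammatory mediators, 4 of 14 tested members were called lower and none higher (list median -0.34), where 0.408% of all genes tested were called lower. Nos2, the inducible nitric oxide synthase on chromosome 11 (82443125 to 82484262), had the greatest difference of all called genes. Its level was 16.9 and 12.9 CPM with LD-F1 EVs, 2.16 and 2.63 CPM with LD-F1_b EVs and 0.196 and 0.189 CPM with PBS, where it was at the floor of 3 counts. The log2 fold change was -2.63 ± 0.25 (adjusted p = 0.000965), 6.2-fold lower. Ptgs2, the cyclooxygenase that starts prostaglandin synthesis, was at 122 and 95.1 CPM against 38.6 and 32.2 CPM (-1.61 ± 0.19, adjusted p = 0.00614). Acod1, which makes itaconate, was at 471 and 363 CPM against 200.2 and 194 CPM (-1.08 ± 0.12, adjusted p = 0.00133). Slc7a2, a transporter of arginine, the substrate of Nos2, was at 154 and 117 CPM against 87.9 and 84.6 CPM (-0.65 ± 0.12, adjusted p = 0.0413). The call of Slc7a2 was kept in 9 of 15 settings that hold both LD-F1_b libraries. It was lost with only the 4 EV libraries (adjusted p = 0.0951), with library totals as the scaling (0.0662) and without robust estimation (0.0609), among others.

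The other members of that list did not pass. Gch1, which supplies a cofactor of nitric oxide synthase, was at -0.47 ± 0.13 (adjusted p = 0.211) and Odc1, the first enzyme of polyamine synthesis, at -0.36 ± 0.10 (adjusted p = 0.222). Arg1, which competes for arginine, was low in both groups, at 3.86 and 2.6 CPM on average (adjusted p = 0.703). The acute-phase and antimicrobial list held 5 tested members, none called by edgeR's quasi-likelihood test, 3 at an unadjusted p under 0.05 and 1 called lower by DESeq2. Slpi, a secreted protease inhibitor, was the nearest at -0.63 ± 0.13 (adjusted p = 0.0579), and Lcn2, a siderophore-binding protein, was at 12.5 CPM against 6.73 CPM (-0.89 ± 0.23, adjusted p = 0.194).

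Of all lists, the one of IFIT, ISG15 and antiviral effectors held the most calls. It had 7 of 18 tested members called lower and none higher, with a median of -0.97, and 14 were lower at an unadjusted p under 0.05. Of the guanylate-binding and immunity-related GTPases 2 of 8 were called lower (median -0.91), with all 8 lower at an unadjusted p under 0.05. Among nucleic acid sensors 4 of 15 were called lower (median -0.45), and among oligoadenylate synthetases 2 of 6 (median -0.43). In all genes tested, 0.408% were called lower, and 576 of 12740 were lower at an unadjusted p under 0.05. With either LD-F1_b library left out, none of these lists held a call.

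Ifit1, which binds viral RNA, lies on chromosome 19 (34399342 to 34411059). It was at 21.3 and 21.2 CPM with LD-F1 EVs, 5.84 and 4.7 CPM with LD-F1_b EVs and 2.02 and 1.32 CPM with PBS. Isg15, a ubiquitin-like modifier, was at 16.0 CPM in both LD-F1 libraries, at 5.08 and 4.08 CPM with LD-F1_b EVs and at 1.96 and 1.83 CPM with PBS. Both are among the windows printed above, which were chosen for holding a motif, each with 3 interferon cores. The windows of Cmpk2, Oasl2, Xaf1, Irf7, Phf11d and Oasl1, also called lower, held 0 interferon cores. The log2 fold changes were -2.01 ± 0.21 for Ifit1 (adjusted p = 0.00128) and -1.80 ± 0.21 for Isg15 (adjusted p = 0.00183). Cmpk2, a mitochondrial nucleotide kinase, was at 14.6 and 16.0 CPM against 3.76 and 3.66 CPM (-2.04 ± 0.22, adjusted p = 0.00133). Usp18, which removes ISG15 from proteins and dampens interferon signalling, was at 86.8 and 86.3 CPM against 40.3 and 39.9 CPM (-1.11 ± 0.12, adjusted p = 0.00166).

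The other called members of the list were Rtp4, Xaf1 and Phf11d, at -1.22, -1.06 and -0.88 on the log2 scale. Ifit2 and Rsad2, named after their values were seen because they are textbook members, did not pass at -1.29 and -2.03 (adjusted p = 0.0549 and 0.14). Rsad2 averaged 4.83 CPM with LD-F1 EVs and 1.18 CPM with LD-F1_b EVs. Not every member differed in this way. Eif2ak2, the RNA-activated kinase, averaged 72.7 and 71.9 CPM, and Ifi27l2a 7.11 and 8.39 CPM, both also picked after their values were seen. Mx1 had too few counts for the test, with 6 and 7 with LD-F1 EVs and 0 and 3 with LD-F1_b EVs, a ratio of 4.56 (95% exact counting interval 1.25 to 25.0). That interval holds counting error only and leaves out the spread between libraries, so it is no test of the groups.

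Sensors of foreign nucleic acid that were lower covered RNA and DNA. Ddx58, which encodes the RNA sensor RIG-I, was at 75.8 and 63.0 CPM with LD-F1 EVs and 46.8 and 39.2 CPM with LD-F1_b EVs (-0.69 ± 0.13, adjusted p = 0.0356). Dhx58, its regulator LGP2, was at 44.3 and 40.2 CPM against 21.0 and 23.5 CPM (-0.92 ± 0.13, adjusted p = 0.00672). Ifi204 and Ifi205, of the DNA-binding HIN-200 family, were at -1.03 ± 0.11 and -1.30 ± 0.22. These family members, like the IFIT and GBP genes, are close copies of each other, and no label or file states how reads shared between copies were counted, so values of single members are uncertain. Ifih1, which encodes the sensor MDA5, was near the threshold at -0.84 ± 0.17 (adjusted p = 0.0604).

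Oasl2 and Oasl1, oligoadenylate synthetase-like proteins, were the 2 called members of their list. Oasl2 was at 32.9 and 29.4 CPM with LD-F1 EVs, 13.1 and 11.5 CPM with LD-F1_b EVs, and 2.94 and 4.22 CPM with PBS (-1.34 ± 0.17, adjusted p = 0.0044), and Oasl1 changed by -0.68 ± 0.09. Gbp2, a GTPase that acts on pathogen-containing vacuoles, was at 14.1 and 12.7 CPM against 4.66 and 5.25 CPM (-1.43 ± 0.22, adjusted p = 0.0115). Irgm1, which regulates that family, was at 68.6 and 61.7 CPM against 39.9 and 38.0 CPM (-0.74 ± 0.11, adjusted p = 0.00901). In 7 of the 9 windows of the GTPase list an interferon core was found (77.8%), and in 6 of 16 windows of the IFIT list (37.5%). Gbp3, Gbp7, Igtp and Irgm2 lay between -0.62 and -1.10 and were not called.

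Receptors and transcription factors of the interferon pathway gave 1 call. Of the interferon genes, receptors and kinases, 7 were tested and none was called by edgeR's quasi-likelihood test or by DESeq2, with 0 at an unadjusted p under 0.05. Ifnb1, Ifna4, Ifng and Ifnl2 had 0 counts in all 6 libraries, which allows at most 0.225 CPM in a library (counting error only). Ifnar1, a receptor chain for type I interferon, averaged 181 and 183 CPM, with a log2 difference of 0.02 ± 0.09. Among 13 interferon transcription factors Irf7 alone was called, at 99.1 and 90.5 CPM with LD-F1 EVs, 50.5 and 51.8 CPM with LD-F1_b EVs and 27.0 and 26.7 CPM with PBS (-0.89 ± 0.10, adjusted p = 0.00166). Irf1 was at -0.51 ± 0.17 and was not called (adjusted p = 0.367). Irf8, which guides macrophage and dendritic cell development, lay the other way, at 73.9 and 83.6 CPM with LD-F1 EVs and 96.4 and 107 CPM with LD-F1_b EVs, without overlap and without a call (0.37 ± 0.10, adjusted p = 0.219).

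Genes linked to interferon outside those lists gave a few calls, where 0.408% of all genes tested were called lower. Parp14 and Parp12, ADP-ribosyltransferases, were 2 of 15 PARP genes called, at -0.65 ± 0.11 and -0.50 ± 0.09. Tap1, the peptide transporter of MHC class I loading, was 1 of 16 presentation genes called (58.8 and 57.3 CPM against 39.6 and 38.8 CPM, -0.57 ± 0.11, adjusted p = 0.0413), while H2-K1 and B2m were at -0.17 ± 0.08 and -0.11 ± 0.09. The call of Tap1 was lost with only the 4 EV libraries (adjusted p = 0.116), without replicate 1 or replicate 2 of PBS (0.11 and 0.106) and with library totals as the scaling (0.0619). Cd40, the costimulatory receptor, was 1 of 8 class II and costimulation genes called. It was at 29.2 and 25.1 CPM with LD-F1 EVs, 11.2 and 12.8 CPM with LD-F1_b EVs and 2.55 and 2.84 CPM with PBS (-1.18 ± 0.16, adjusted p = 0.00672).

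**Figure D4:**
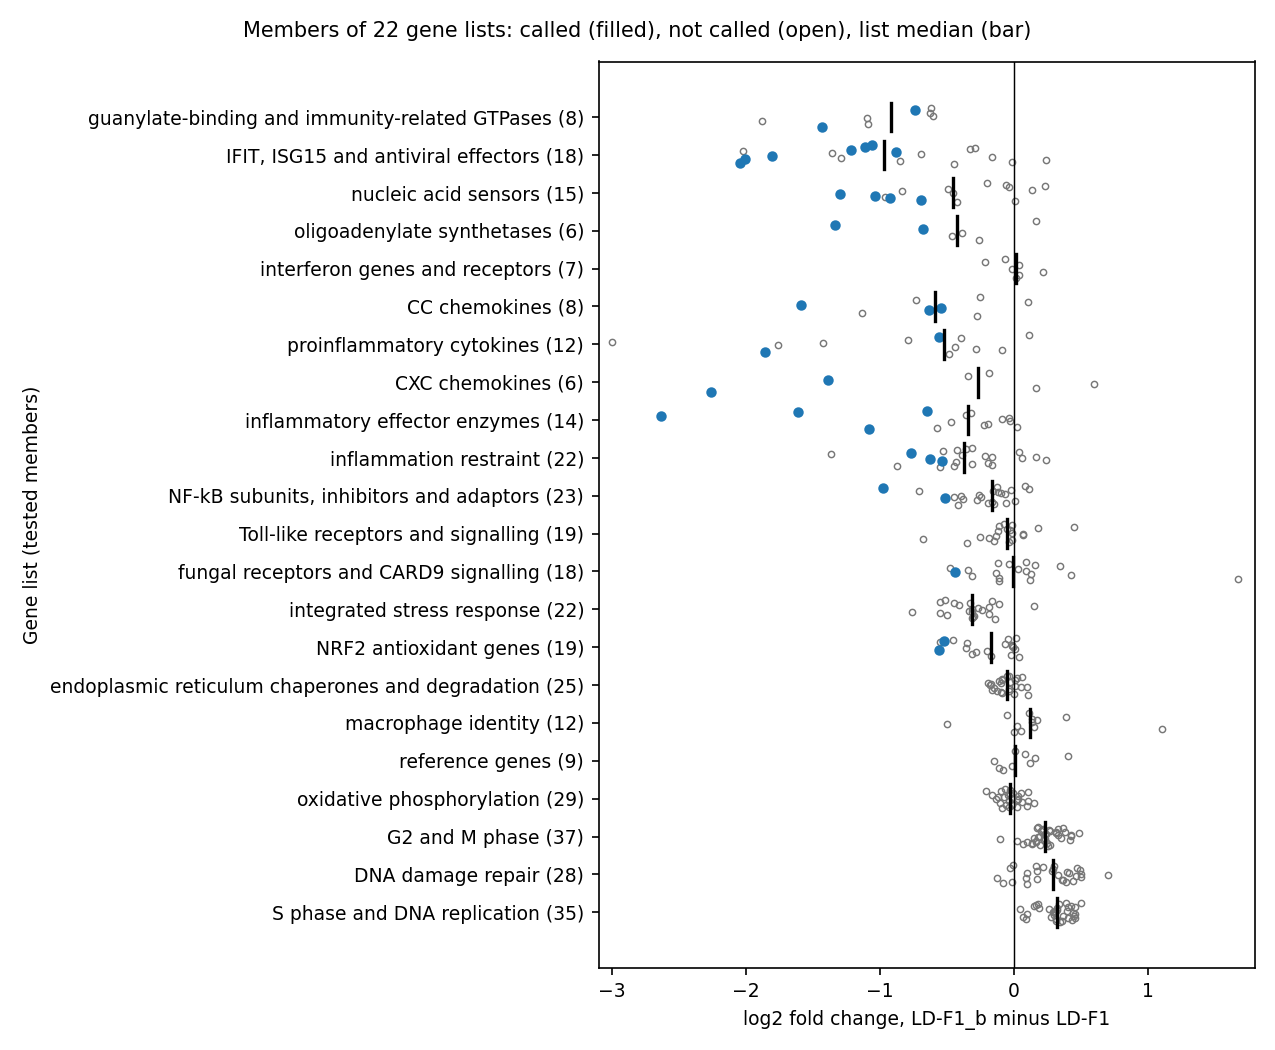
Log2 fold change of LD-F1_b against LD-F1 EVs (horizontal axis) for the tested members of 22 gene lists, with called members filled, members not called open and the list median as a bar (Il6 is drawn at the left limit of -3). Most filled points lie in interferon-induced and inflammatory lists, with 2 in the NRF2 antioxidant list and 1 in the fungal receptor list. The S phase list lies wholly right of 0 with no called member.

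The NF-kB pathway itself showed its inhibitor and an adaptor lower. Of 23 tested subunits, inhibitors and adaptors 2 were called lower, Nfkbia and Traf1, and none higher (median -0.16), where 0.408% of all genes tested were called lower. Nfkbia, the inhibitor that NF-kB induces and whose window above holds 3 NF-kB cores, was at 215 and 222 CPM with LD-F1 EVs, 153 CPM in both LD-F1_b libraries, and 70.1 CPM in both PBS libraries (-0.51 ± 0.08, adjusted p = 0.0136). Traf1, an adaptor of TNF receptors, was at 118 and 117 CPM, 59.8 and 59.4 CPM, and 16.7 and 16.9 CPM in the same order (-0.98 ± 0.09, adjusted p = 0.000965). The 3 groups did not overlap for either gene. The call of Nfkbia was lost with only the 4 EV libraries (adjusted p = 0.081) and without either PBS library. The window of Traf1 held 0 NF-kB cores. Tnfaip3, the inhibitor A20, fell just outside the threshold at -0.71 ± 0.14 (adjusted p = 0.0549), and Nfkb1 and Nfkb2, the subunit genes, were at -0.27 ± 0.08 and -0.38 ± 0.09. The NF-kB core was in 13 of 28 windows of this list (46.4%).

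Of the genes that restrain inflammation, 3 of 22 were called lower by edgeR's quasi-likelihood test and 5 by DESeq2 (median -0.37). Over all 12740 genes tested edgeR's test called 0.408% lower, and DESeq2 called 89 lower and gave 1482 no adjusted p. Il1rn, the IL-1 receptor antagonist, was at 537 and 539 CPM against 343 and 355 CPM (-0.62 ± 0.08, adjusted p = 0.0044). Socs3, the inhibitor of cytokine receptor signalling, was at 88.3 and 76.7 CPM against 47.6 and 49.1 CPM (-0.77 ± 0.11, adjusted p = 0.00672). Ier3, an early response gene linked to survival, was at -0.53 ± 0.10, a call lost with only the 4 EV libraries (adjusted p = 0.116). Zc3h12a, an RNase that degrades cytokine mRNA, was at -0.53 ± 0.11 and missed the threshold (adjusted p = 0.0554). Tnfrsf1b, the second TNF receptor, was the single call among 25 cytokine receptor chains, at 734 and 596 CPM against 388 and 405 CPM (-0.75 ± 0.11, adjusted p = 0.00884).

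The Toll-like receptor and fungal recognition lists gave 1 call, apart from the 4 among the nucleic acid sensors above. Of 19 Toll-like receptor and signalling genes none was called by edgeR's quasi-likelihood test or by DESeq2, and 2 were lower at an unadjusted p under 0.05, with Cd14 at -0.35 ± 0.10 and Ly96 at -0.67 ± 0.23. Of 18 genes for fungal recognition and CARD9 signalling, Clec4e alone was called. This gene encodes Mincle, a C-type lectin for fungal and mycobacterial glycolipids, and was at 688 and 624 CPM with LD-F1 EVs and 482 and 484 CPM with LD-F1_b EVs (-0.44 ± 0.08, adjusted p = 0.048). The call was lost with only the 4 EV libraries (adjusted p = 0.189), without either PBS library (0.172 in both) and with library totals as the scaling (0.0768), and was kept in 8 of 15 settings that hold both LD-F1_b libraries. Clec7a, the β-glucan receptor Dectin-1, was at 43.8 and 34.5 CPM on average and was not called (-0.34 ± 0.15, adjusted p = 0.537).

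Stress genes gave a few calls. Hmox1, the haem-degrading enzyme, was at 2101 and 2051 CPM with LD-F1 EVs, 1392 and 1424 CPM with LD-F1_b EVs and 835 and 767 CPM with PBS (-0.56 ± 0.08, adjusted p = 0.00966). Sqstm1, the autophagy adaptor p62, was at 3461 and 3481 CPM against 2402 and 2444 CPM (-0.52 ± 0.08, adjusted p = 0.0115). These were the 2 of 19 NRF2 antioxidant genes called lower by edgeR's quasi-likelihood test, which called 0.408% of all genes tested lower. DESeq2 called 5 of the 19 lower, and 89 of all genes tested. Srxn1, Slc7a11 and Prdx1 were at -0.46 ± 0.09, -0.55 ± 0.13 and -0.35 ± 0.09 without a call by edgeR's quasi-likelihood test. Plk2 and Gadd45b, both inducible by p53 and by other stimuli, were the 2 of 19 listed p53 targets called, at -0.60 ± 0.09 and -0.90 ± 0.16, while Cdkn1a, a defining target named after its values were seen, was at -0.11 (adjusted p = 0.816).

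The integrated stress response, which the factor ATF4 drives when amino acids run short or the endoplasmic reticulum is stressed, had no call among 22 tested members by edgeR's quasi-likelihood test. Its median was -0.31, and DESeq2 called 1 lower. At an unadjusted p under 0.05, 15 members were lower, where 576 of all 12740 genes tested were. Trib3, a pseudokinase induced by ATF4, averaged 86.1 CPM with LD-F1 EVs, 60.2 CPM with LD-F1_b EVs and 8.08 CPM with PBS (-0.52 ± 0.13, adjusted p = 0.161). Chac1, which degrades glutathione, averaged 32.2, 21.9 and 2.21 CPM (-0.55 ± 0.15, adjusted p = 0.222). Without replicate 1 or replicate 2 of LD-F1, 10 and 5 members of this list were called lower, where 4.13% and 2.01% of all genes tested were called lower. With either LD-F1_b library left out none was called. Of 25 chaperone and degradation genes of the endoplasmic reticulum none was called by either tool and 0 reached an unadjusted p under 0.05, with Hspa5, the chaperone BiP, at 3897 and 3418 CPM on average against 1085 CPM with PBS (-0.19 ± 0.10).

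Side by side, the list medians over PBS were 2.22 with LD-F1 EVs and 1.70 with LD-F1_b EVs for the proinflammatory cytokines. They were 1.71 and 0.70 for the IFIT and ISG15 list, 1.42 and 0.99 for the integrated stress response, and 0.89 and 0.86 for the endoplasmic reticulum list. All are log2 differences from the same PBS libraries.

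**Figure D5:**
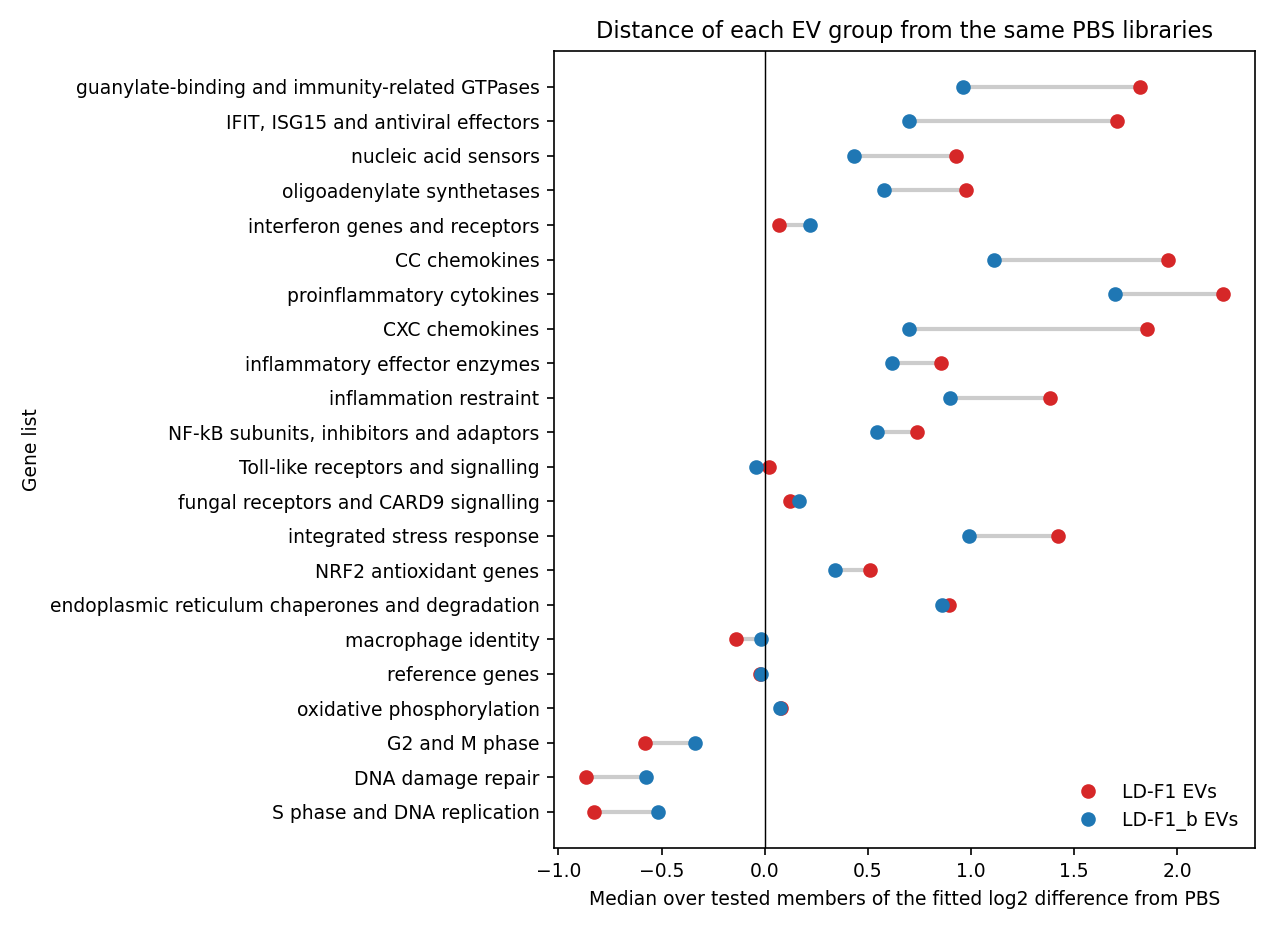
Median over the tested members of 22 gene lists of the fitted log2 difference from PBS (horizontal axis) for LD-F1 EVs (red) and LD-F1_b EVs (blue), which share the PBS libraries. The gap is wide for the IFIT and ISG15 list (1.71 and 0.70) and narrow for the endoplasmic reticulum list (0.89 and 0.86).

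Genes of cell division lay on the other side, without calls. All 35 tested genes of S phase and DNA replication had a positive log2 fold change, with a median of 0.32. At an unadjusted p under 0.05, 25 of them were higher, where 543 of all 12740 genes tested were. Genes of a list come from the same libraries and are not independent replicates. None was called by edgeR's quasi-likelihood test, and DESeq2 called 3 higher. Of all 12740 genes tested DESeq2 called 21 higher and gave 1482 no adjusted p. Rrm2, a subunit of ribonucleotide reductase, averaged 45.7 CPM with LD-F1 EVs, 64.8 CPM with LD-F1_b EVs and 109 CPM with PBS (0.50 ± 0.10, adjusted p = 0.0549). Mcm5, part of the replicative helicase, averaged 154, 203 and 274 CPM (0.40 ± 0.08, adjusted p = 0.0769). Over genes of G2 and M phase the median was 0.23 and 16 of 37 were higher at an unadjusted p under 0.05, and over DNA repair genes it was 0.29 with 12 of 28. Neither list had a call by edgeR's quasi-likelihood test, and DESeq2 called 0 and 1. Without replicate 1 or replicate 2 of LD-F1, 13 and 10 S phase genes, 6 and 3 G2 and M phase genes, and 8 and 2 repair genes were called higher, where 4.52% and 0.689% of all genes tested were called higher. With either LD-F1_b library left out none of these 3 lists had a call. The S phase median was 0.32 with an offset for gene length also.

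Only Timp2 and Mmd were called higher with LD-F1_b EVs. Timp2, an inhibitor of matrix metalloproteinases, was at 22.3 and 23.5 CPM with LD-F1 EVs, 38.5 and 36.3 CPM with LD-F1_b EVs and 68.6 and 64.9 CPM with PBS (0.71 ± 0.11, adjusted p = 0.0134). Mmd, a membrane protein named for its link to monocyte-to-macrophage differentiation, was at 51.6 and 58.2 CPM, 81.7 and 78.8 CPM, and 91.0 and 98.5 CPM in the same order (0.55 ± 0.10, adjusted p = 0.0417). Both were highest with PBS, with no overlap between the groups. Timp2 was the single call among 17 genes of matrix remodelling and adhesion, where Mmp9 and Mmp13 were at -0.34 ± 0.09 and -1.58 ± 0.56 and were not called.

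Of the 54 called genes 11 were in none of the gene lists. Phlda1, a stimulus-induced regulator of survival, had the greatest fold change of them and was at 16.3 and 18.1 CPM with LD-F1 EVs, 7.44 and 6.7 CPM with LD-F1_b EVs and 1.24 and 1.2 CPM with PBS (-1.28 ± 0.19, adjusted p = 0.00901). The others, named after their values were seen, were the small GTPase gene Rhob (-0.95 ± 0.16), the serpins Serpinb9b (-0.82 ± 0.11) and Serpinb6b (-0.68 ± 0.11), Marcksl1 (-0.68 ± 0.10), the endolysosomal channel gene Mcoln2 (-0.64 ± 0.11), and the peptide and histidine transporter gene Slc15a3 (-0.63 ± 0.10). They also included Alas1, the first enzyme of haem synthesis (-0.57 ± 0.09), the protein C receptor gene Procr (-0.57 ± 0.09), Mmd, and an assembled locus with no gene name on an unplaced scaffold (-0.58 ± 0.11, adjusted p = 0.0491).

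Lists of basal metabolism, translation and identity held no call by edgeR's quasi-likelihood test. Of 29 genes of oxidative phosphorylation 0 reached an unadjusted p under 0.05 and DESeq2 called 0 (median -0.02). Of 12 macrophage identity genes 1 was higher and 1 lower at an unadjusted p under 0.05 and DESeq2 called 1 higher. Ribosomal protein genes had a median of -0.06, but this turned to 0.12 without replicate 2 of LD-F1 and reached -0.18 without replicate 1. The giant genes, with a median length of 18160 bases, moved the other way. Their median of 0.04 became 0.40 without replicate 1 and -0.17 without replicate 2.

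Of 9 tested reference genes none was called by edgeR's quasi-likelihood test or by DESeq2, and 0 reached an unadjusted p under 0.05. Tbp was at 36.2 and 36.4 CPM on average, Gusb at 477 and 473 CPM and Hprt at 165 and 149 CPM, with log2 differences of 0.01 (95% interval -0.28 to 0.29), -0.01 (-0.21 to 0.18) and -0.15 (-0.39 to 0.10). Actb averaged 7067 CPM with LD-F1 EVs and 6678 CPM with LD-F1_b EVs (-0.08, 95% interval -0.27 to 0.11). The intervals were wider for Ppia, at 0.41 (-0.36 to 1.17), and Polr2a, at 0.16 (-0.41 to 0.73), whose LD-F1 libraries differed from each other (277 and 143 CPM for Ppia, 316 and 174 CPM for Polr2a). Sdha was at 0.08 (-0.10 to 0.27) and B2m at -0.11 (-0.31 to 0.09).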

How the data were processed

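The deposited table holds raw read counts per gene for 6 libraries of total RNA (poly-T selected, random-primed), and its gene length in bases. The submitters' processing notes name fastp, HISAT2 2.0.5, StringTie 1.3.3b, featureCounts 1.5.0-p3 and the build GRCm39, without roles. Per the file headers and identifiers, the deposited counts follow a C57BL/6NJ gene annotation with its coordinates and added assembled loci. Strand setting and the treatment of multi-mapping reads: not given in the sources used here; hence reads of overlapping, antisense or near-identical genes cannot be separated. The counts were used as deposited, with 0 columns left unmatched to a sample.

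Genes were filtered with filterByExpr, scaled by TMM and fitted in edgeR 4.0.16 (R 4.3.3) with the robust quasi-likelihood test, a mean for each of the 3 groups over all 6 libraries and 3 residual degrees of freedom. LD-F1_b EVs were compared with LD-F1 EVs, p-values were adjusted by Benjamini-Hochberg over all 12740 genes tested, and a gene was called at an adjusted p under 0.05. CPM are counts per 1000000 counts of the TMM-scaled library, ± gives the standard error of a log2 fold change unless a sentence names an interval, and values are listed in the order of replicate 1 and replicate 2. DESeq2 1.42.0, limma 3.58.1 (voom), other filters and scalings, a lowess offset for gene length, leaving out each library and a replicate block were the alternatives. On simulated counts for this comparison over 12495 genes, 98 of 100 genes changed 2-fold and 100 of 100 changed 4-fold were recovered. Of 214 calls on these counts, 16 were false. These figures describe the simulated counts only. The real LD-F1 libraries differed from each other with gene length (Spearman's rho 0.481 across genes). Their log2 difference had a standard deviation of 0.296, against 0.162 for the PBS libraries. Recovery and false calls in the real libraries were not tested.

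Named genes are the 15 lowest and 15 highest called genes at 5 CPM or more, the up to 6 members of each list with the smallest p, and reference genes. Other names are marked in the text. The comparison and the 48 gene lists (1013 symbols, 827 tested) were chosen with earlier results of these data known. Motif windows were RefSeq sequences of GRCm38.p6, a different build from the table, joined by symbol only.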

Additional observations from a re-analysis of the deposited data

How the results depend on the processing

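Against the 54 calls (2 higher, 52 lower), the count was 33 (0 higher, 33 lower) with only the 4 EV libraries, 185 (48 and 137) with no filter on low counts, 110 (21 and 89) with DESeq2's test, and 113 (19 and 94) with the gene length offset. Library totals alone as the scaling gave 49, of which 5 were higher. Leaving out each library in turn gave 0 to 1152 calls, 0 to 602 of them higher and 0 to 550 lower. Without replicate 1 of PBS 39 were called (1 higher) and without replicate 2 of PBS 43 (1 higher). DESeq2's size factors gave 54 calls, the filter at 1 CPM in 4 libraries 51, limma voom 70 and no robust estimation 51. The cause of these differences was not tested.

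With the replicate block, 52 genes were called (2 higher, 50 lower), with the calls of Tap1, Ier3 and Clec4e lost (adjusted p = 0.0584, 0.0526 and 0.068), and with the replicate block and the gene length offset 108 (15 and 93). Over 9663 genes, deviations of same-numbered libraries had a correlation of 0.131 between LD-F1 and LD-F1_b. It was -0.0167 between LD-F1 and PBS and -0.0403 between LD-F1_b and PBS. The labels do not say that shared numbers pair libraries, so the main fit holds no pairing. The correlations do not decide this, because replicate differences followed gene length in both EV groups.

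No gene reversed its direction in any of these settings among the 54 called. This direction is fixed by the lack of overlap wherever a library was left out. The comparison rests on 2 libraries a group, and those of LD-F1 differ with gene length. Listed genes with too few counts to test numbered 88.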

Other observations

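In an uncalled gene the higher mean with LD-F1_b EVs came mainly from 1 library. Gm14133 was at 5.17 and 5.26 CPM with LD-F1 EVs, 14.1 and 33.2 CPM with LD-F1_b EVs, and 20.6 and 11.2 CPM with PBS (adjusted p = 0.2). The LD-F1_b libraries differed from each other by more than the LD-F1 libraries did, and the gene was named after its values were seen.

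Among genes with too few counts for the test, Il27 had 22 and 8 counts with LD-F1 EVs and 8 counts in each LD-F1_b library. Olr1 had 2 and 9 counts with LD-F1 EVs and 0 in both LD-F1_b libraries. Others lay the other way. Il23a had 0 and 5 counts with LD-F1 EVs and 6 and 15 with LD-F1_b EVs. C1qc had 0 and 3 counts with LD-F1 EVs and 5 in each LD-F1_b library. These genes were named after their values were seen.

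Arhgap18 (17.4 and 17.5 CPM with LD-F1 EVs, 28.7 and 26.1 CPM with LD-F1_b EVs, 31.3 and 29.5 CPM with PBS) lay just outside the threshold on the higher side, with a log2 fold change of 0.65 and an adjusted p of 0.0549, and was named after its values were seen.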
